A study of Mus musculus with 24 samples.

Results

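Day 13 was compared with day 10 of culture in control cells under continued doxycycline. The comparison used 6 of the 24 RNA libraries of the study, chosen by their labels, with 3 libraries at each day paired by replicate number 1 to 3. The cells were mouse fetal liver cells from embryos of day E12.5-13.5, on the background B6J.129(Cg), with Cas9 and EGFP driven by the CAG promoter from the Gt(ROSA)26Sor locus. All carried the guide sgGata1, which gives the short protein GATA1s, and the control construct miR-ctrl. Doxycycline was given at 1 µg/mL for 10 days or for 13 days, so the groups differ in time in culture and in length of treatment alike. Bulk total RNA was sequenced, and read totals were 18767860 to 20502888 counts per library at day 10 and 16414818 to 20812371 at day 13. The labels do not say what a replicate number shares or whether replicates are separate embryos or cultures. Levels of X-linked and Y-linked genes, given below, differed between replicate numbers. The p-values measure the spread left between libraries once the replicate number is in the fit, and that spread may be technical.

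GATA1 is the transcription factor that drives maturation of megakaryocytes, the platelet-forming cells, and of red cells. Truncation to GATA1s leaves fetal progenitors that proliferate strongly and mature poorly, and miR-125b is a microRNA studied as its partner in the leukaemia of Down syndrome. Blood progenitors in culture rely on glycolysis, the breakdown of glucose to pyruvate and lactate. The oxygen-sensing factor HIF-1 raises glycolytic enzymes and glucose transporters when oxygen falls, through the core sequences ACGTG or GCGTG near its targets. Sterol synthesis is governed by SREBP-2, which turns on the pathway when membrane cholesterol is low. Processed pseudogenes are copies of spliced mRNAs pasted back into the genome, and those of ribosomal protein genes are numerous and often nearly identical to the gene they came from.

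The genes that passed the test were chiefly such copies, and a read from an identical stretch has the same letters whether it comes from the copy or from its source. All 171 bases of the processed pseudogene Gm14303, on the minus strand of mouse chromosome 2 (GRCm38, GENCODE M21), are identical to the Rps29 mRNA. Rps29, which encodes a protein of the small ribosomal subunit, is on the minus strand at chr12:69157722-69159186.

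Libraries differed by replicate number. Replicate 1 of the 6 libraries had 34.6 to 103 CPM of the X-inactivation RNA Xist, replicate 2 had 1006 to 1379 and replicate 3 had 711 to 849. In this paragraph, and for sums over classes and lists of genes, CPM are each library's counts scaled to a common total without a further factor. For all other values of single genes CPM are TMM-normalised. The Y-linked gene Ddx3y had 63.6 to 80.3, 0.487 to 0.742 and 22.4 to 24.2 CPM in the same order. Over all 24 libraries the replicate number accounted for 86.9% of the first principal component, which held 32.7% of the variance, and the fit therefore carries it as a block.

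Of 13419 genes tested, 5 passed an adjusted p under 0.05 in edgeR's quasi-likelihood test with the replicate number as a block, which is 0.0373% of genes. Rps29 was the gene that rose (0.00745% of genes higher). Gm14303, Gm10275, Rps6-ps4 and Rpl15-ps3, all annotated as processed pseudogenes, fell (0.0298% lower). Rpl15-ps3 is outside the rule for named genes because of its low level and is given after its value was seen. At an unadjusted p under 0.05 there were 857 genes (6.39%), of which 410 were higher (3.06%) and 447 lower (3.33%) at day 13. The median log2 fold change over all genes was 0.01, and 51.9% of genes were above 0. The day 13 libraries were all above the day 10 libraries for 4.99% of genes and all below for 4.55%.

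Rps29 had 652, 594 and 473 CPM at day 10 and 1111, 875 and 1051 CPM at day 13. Every day 13 library was above every day 10 library, and the 18 other libraries of the study lay at 496 to 813 CPM, below all 3 at day 13. The log2 fold change was 0.82 ± 0.13 (standard error), with an adjusted p of 0.0109 by edgeR's quasi-likelihood test, and Rps29 was higher in 3 of 3 pairs. In the same interval of the miR-125b cells its log2 fold change was 0.05 ± 0.12 (adjusted p = 0.81, edgeR). The difference between control and miR-125b was 0.77 ± 0.18, with an adjusted p of 0.0266. Adding the reads of Gm14303 to those of Rps29 left the ratio of the group means at 0.80 on the log2 scale, since the copy held 1.41% of their sum at day 10 and 0.161% at day 13. Without day 10 replicate 2 or 3 the adjusted p of Rps29 became 0.0634 or 0.0722, and without day 13 replicate 1 or 3 it became 0.131 or 0.156 (edgeR). The log2 fold change without each library in turn ranged from 0.68 to 0.92.

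Gm14303 had 6.13, 8.75 and 9.65 CPM at day 10 and 1.62, 1.83 and 1.45 CPM at day 13. The groups did not overlap, and its log2 fold change of -2.29 ± 0.38 (adjusted p = 0.0271, edgeR) is opposite in sign to that of Rps29. In miR-125b cells its level at day 10 was 3.19, 2.43 and 1.57 CPM, and it rose by day 13 by 1.41 ± 0.37 (adjusted p = 0.019, edgeR).

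Gm10275, at chr10:29698746-29699380 on the minus strand like the other copies given with coordinates (GRCm38), matches the ribosomal protein gene Rpl12 over 634 of its 635 bases without a mismatch. It had 94.2, 96.3 and 93.6 CPM at day 10 and 48.3, 52.8 and 48.1 CPM at day 13, a log2 fold change of -0.93 ± 0.15 with an adjusted p of 0.0219 (edgeR). All 18 other libraries were below the 3 of day 10. Rpl12 itself also lay lower without overlap, with a log2 fold change of -0.15 ± 0.09 and an adjusted p of 0.86 (edgeR).

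Rps6-ps4, at chr2:75191073-75191822, is identical to the mRNA of Rps6 over its 750 bases. Its levels were 39.2, 38.3 and 44.03 CPM at day 10 and 17, 24.03 and 21.9 CPM at day 13, and its log2 fold change was -0.96 ± 0.17 (adjusted p = 0.045, edgeR). Here, too, all 18 other libraries were below those of day 10. Rps6, a small-subunit protein phosphorylated downstream of mTOR, had a log2 fold change of 0.00 ± 0.09 (adjusted p = 1.00, edgeR).

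Rpl15-ps3, at chr9:22185607-22186221, is identical to Rpl15 over 615 bases. It had 3.598, 4.51 and 6.18 CPM at day 10 and 0.764, 0.917 and 0.9503 CPM at day 13, and the log2 fold change was -2.41 ± 0.36 (adjusted p = 0.0109, edgeR). The day 13 levels were all below those of day 10. The copy held 0.289% of the summed reads of copy and gene at day 10 and 0.0573% at day 13. Rpl15 itself also lay lower without overlap, with a log2 fold change of -0.10 ± 0.08.

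These calls rest on all 6 libraries. The number of genes called was 0 without day 10 replicate 2 or 3 and without day 13 replicate 1 or 3, 2 without day 10 replicate 1 and 3 without day 13 replicate 2. In those 6 fits 518 to 903 genes had an unadjusted p under 0.05. Gm14303 and Rps6-ps4 passed in none of the 6, with adjusted p up to 0.196 and 0.243, Gm10275 passed in 1 and Rpl15-ps3 in 2 (edgeR). No log2 fold change of the 5 genes changed sign in any of the alternatives run.

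**Figure D1:**
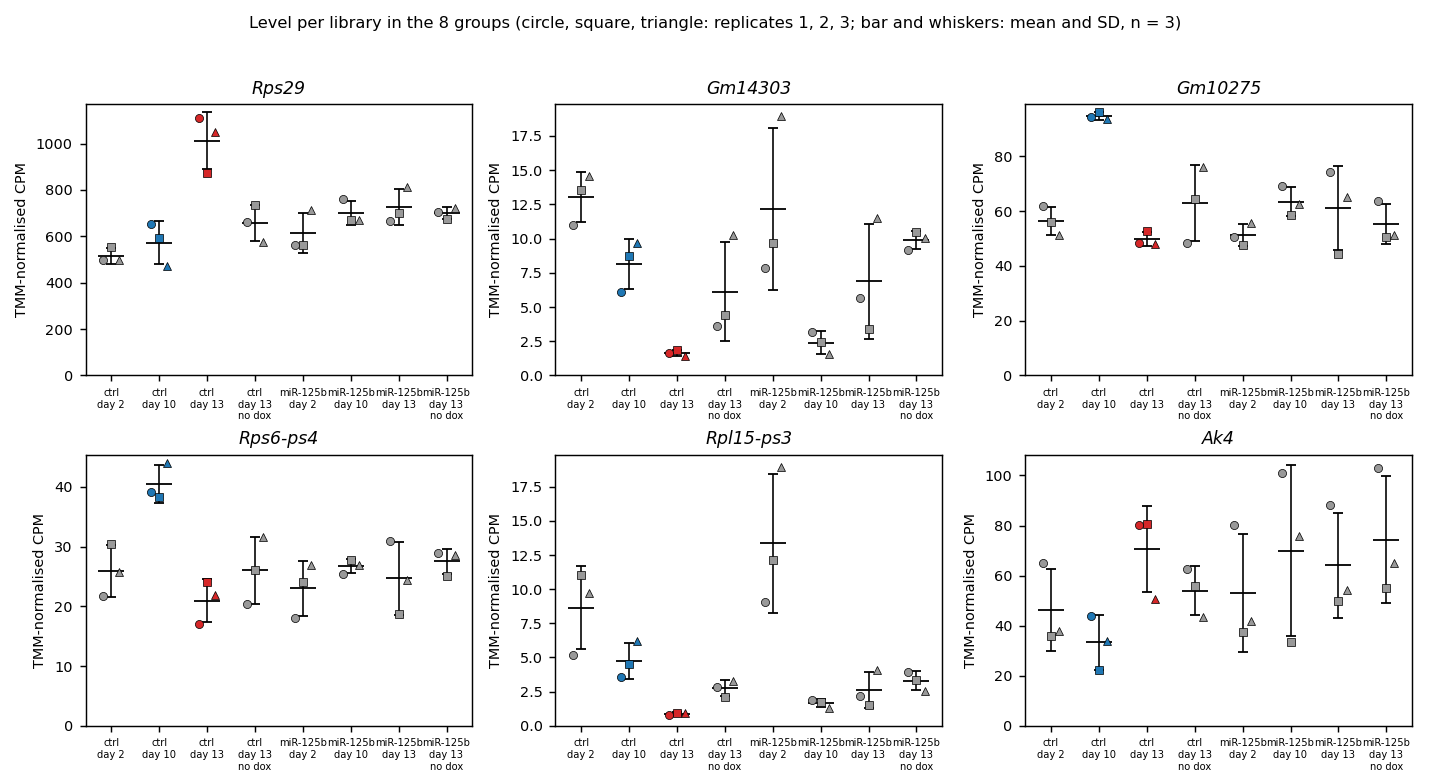
Level of the 5 genes called and of Ak4 in every library, in TMM-normalised CPM (y axis, from 0), by group (x axis; "no dox" is doxycycline withdrawn on day 10). Points are libraries, with day 10 control in blue and day 13 control in red, and bars are means with SD of 3 libraries. Rps29 at day 13 lies above all 21 other libraries, and Gm10275 and Rps6-ps4 at day 10 lie above the 18 libraries in grey.

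Other copies also lay lower at day 13. Of 263 processed pseudogenes tested (230 processed and 33 transcribed processed), classes singled out after the calls were seen, 4 were called lower and 0 higher. The share called lower was 1.52%, against 0.0298% of all genes. At an unadjusted p under 0.05, 54 were lower and 8 higher, which is 20.5% and 3.04%, against 3.33% and 3.06% of all genes. Their median log2 fold change was -0.17. The day 13 libraries were all below day 10 for 70 of the 263, against 4.55% of all genes. DESeq2 called 16 of them lower (6.08%, against 0.186% of all genes). In the 33 transcribed processed pseudogenes the median was -0.34. Summed over the class, transcribed processed pseudogenes took 365, 367 and 329 CPM in day 10 replicates 1, 2 and 3, and 199.7, 226 and 201 at day 13. The day 10 sums were above those of all 21 other libraries, which ranged from 163 to 285 CPM. The larger class of processed pseudogenes took 790.0 to 851 CPM at day 10, 611 to 660 at day 13 and 548 to 768 in the other 18 libraries. Whether this share of reads plays a part in the calls was not tested. With only the 11717 protein-coding genes in the fit, Rps29 alone passed, with an adjusted p of 0.0216 (edgeR).

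Among genes named by lowest p without passing the test, 6 more copies were lower at day 13. On this side the rule took only genes lower in 3 of 3 pairs, so that trait is no separate result. Their groups did not overlap, which goes with a low p. Over all genes 4.55% had day 13 all below day 10. Gm12918, identical to Rpl13, had 22.8, 27.2 and 24.9 CPM at day 10 and 10.3, 11.9 and 11.1 CPM at day 13 (adjusted p = 0.0537, edgeR). Rpl10a-ps1 had 30.1, 33.5 and 29.5 CPM at day 10 and 14.9, 20.97 and 20.3 CPM at day 13. Tpt1-ps3, a copy of the growth-related gene Tpt1, had log2 fold change -0.83 ± 0.16, and Gm10175, a copy of the ATP synthase gene Atp5g2, had -1.32 ± 0.27. Rps2-ps10 had 20.7, 15.03 and 14.4 CPM at day 10 and 7.79, 7.46 and 9.78 CPM at day 13, and Rpl3-ps1 had a log2 fold change of -0.64 ± 0.14. The closest coding genes of these 6 copies and of Gm10275, Rps6-ps4 and Rpl15-ps3 had log2 fold changes from -0.15 (Rpl12) to 0.10 (Atp5g2), and their lowest adjusted p was 0.859 (edgeR). Of these coding genes, Rpl12, Rpl13 and Rpl15 were lower without overlap between the days, and the groups of the others overlapped.

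**Figure D2:**
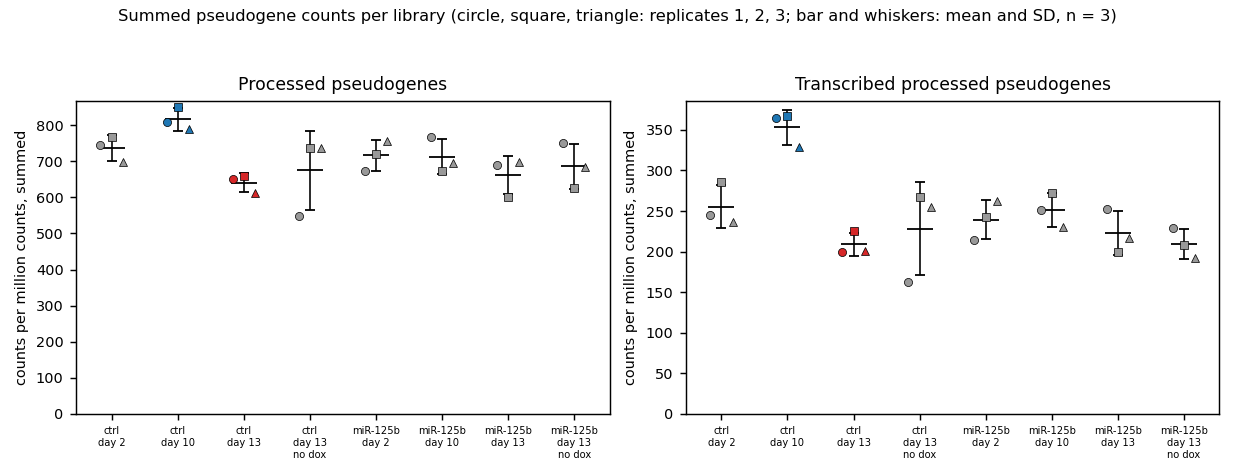
Summed CPM of processed pseudogenes (left) and transcribed processed pseudogenes (right) in each library (y axis, from 0), by group (x axis). Points are libraries and bars are means with SD of 3; the day 10 control libraries (blue) lie above the 21 others in both panels, at 790.0 to 851 and 329 to 367.

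The other genes nearest to the threshold on the higher side were mostly small proteins. Rps28, of the small ribosomal subunit, had 661, 576 and 461 CPM at day 10 and 947, 769 and 852 CPM at day 13, and Rpl38, of the large subunit, had 522, 509.9 and 415 CPM at day 10 and 718, 657 and 710.4 CPM at day 13. Their log2 fold changes were 0.60 ± 0.14 and 0.53 ± 0.13, with adjusted p of 0.22 and 0.25 (edgeR). Groups did not overlap for either gene. The difference between arms for Rps28 was 0.75 ± 0.20 (adjusted p = 0.0441, edgeR).

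Ost4, a small subunit of the oligosaccharyltransferase that glycosylates proteins in the endoplasmic reticulum, had 13.2, 12.2 and 12.8 CPM at day 10 and 18.9, 19.6 and 17.9 CPM at day 13 (adjusted p = 0.11, edgeR). Atp5k and Usmg5, small subunits of the mitochondrial ATP synthase, had log2 fold changes of 0.57 ± 0.12 and 0.40 ± 0.10. Of the 10 genes named on the higher side, Rps29, Rps28, Rpl38, Ost4, Atp5k and Usmg5 have coding lengths of 111 to 213 bases in GENCODE M21. Of 76 protein-coding genes of at least 3 log2 CPM with a coding length up to 240 bases, a set chosen after these names were seen, 8 were higher (10.5%) and 1 lower (1.32%) at an unadjusted p under 0.05, and their median was 0.02. Of 8592 such genes with longer coding sequences 3.21% were higher and 3.85% lower. The 8 include Rps29, Rps28, Rpl38, Ost4, Atp5k and Usmg5, which prompted the set. Its share of higher genes is therefore not a result separate from their naming. Another set, of 32 protein-coding genes with an exon length of 500 bases or less and no limit on level, leaned the other way. At an unadjusted p under 0.05, 2 of the 32 were higher (6.25%) and 3 lower (9.38%), and their median was -0.09.

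The cytosolic ribosomal protein list as a whole had a median near that of all genes. The list leaves out Rps29. Of its 38 members tested 0 were called by edgeR, and the median log2 fold change was -0.03. DESeq2 called 2 higher, Rps28 and Rpl38 (5.26%, against 0.0671% of all genes higher). At an unadjusted p under 0.05, 3 were higher (7.89%) and 1 lower (2.63%), against 3.06% and 3.33% of all genes. A set of all 82 protein-coding genes named Rps, Rpl, Rplp or Rpsa was chosen after the calls were seen. Rps29 was the 1 called, against 0.00745% of all genes higher, and the median was -0.03. At an unadjusted p under 0.05, 7 were higher (8.54%) and 1 lower (1.22%), against 3.06% and 3.33% of all genes. Rplp0, of the ribosomal stalk, had 4151, 3763 and 3939.9 CPM at day 10 and 4166, 3575 and 3859 CPM at day 13, and Rpl3 had a log2 fold change of 0.10 ± 0.11.

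Ak4, a mitochondrial adenylate kinase and HIF-1 target, had 43.9, 22.2 and 33.7 CPM at day 10 and 80.2, 80.6 and 50.6 CPM at day 13. The groups did not overlap, and its log2 fold change of 1.14 ± 0.25 was the largest named on the higher side, with an adjusted p of 0.14 (edgeR) and 0.000478 by DESeq2. Its level in the other 18 libraries was 33.3 to 103 CPM, so day 13 control lies within the range of the study and day 10 replicate 2 lies below it. Cdc14b, a phosphatase of late mitosis, had 9.87, 9.18 and 7.81 CPM at day 10 and 13.6, 14.6 and 10.3 CPM at day 13. On the lower side, Mospd3, a protein of membrane contact sites, had 50.9, 51.1 and 47.6 CPM at day 10 and 33.7, 33.4 and 38.9 CPM at day 13, and Spsb2, an adaptor of a ubiquitin ligase, had 20.4, 23.9 and 24.6 CPM at day 10 and 14.3, 14.6 and 19.4 CPM at day 13. Both were lower in 3 of 3 pairs, as the naming rule required, and without overlap, with adjusted p of 0.11 and 0.11 (edgeR).

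Glycolysis and hypoxia genes were higher at day 13 on balance, without a member passing the test. The list was chosen with earlier results of these data known, so its shares describe these libraries and do not test the pathway. Of 34 genes listed 33 were tested, and 32 of these had a log2 fold change above 0, against 51.9% of all genes. The median was 0.43, with 0.38, 0.56 and 0.25 in pairs 1, 2 and 3. At an unadjusted p under 0.05, 16 were higher and 0 lower, which is 48.5% against 3.06% of all genes, and 0 of 33 were called by edgeR. In 14 of the 33 the day 13 libraries were all above day 10, against 4.99%, and 28 were higher in 3 of 3 pairs, against 19.1%. Without day 13 replicate 2 the median was 0.26 and 5 members were higher at an unadjusted p under 0.05. DESeq2 called 1 member, Pdk1 (against 0.0671% of all genes higher). A fit of the 6 libraries alone called 13 higher, which is 39.4% against 1.06% of 12424 genes tested there (2.33% in either direction and 1.26% lower). That fit has fewer residual degrees of freedom than the main fit, and a fit of the 12 control libraries called 0 of 33.

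Short stretches of promoters around the HIF core sequence are shown for some of the 8 members that differed between the control and miR-125b arms. They were picked as having a match, and the core is in capitals.
Pdk1: cgcctacggggGCGTGgttccagcgag
Pfkl: tttgtagactgGCGTGcgctccgcctt
Bnip3: gctccgccgccGCGTGcgtcccgcccc
Egln1: ggccgtggtgtACGTGcagcgcgcgcg
They lie at chr2:71873211-71873237 (plus strand), chr10:78009891-78009917 (minus), chr7:138909526-138909552 (minus) and chr8:124949307-124949333 (minus), from RefSeq promoters of 250 bases before to 50 after the start site (GRCm38.p6). ACGTG or GCGTG, read on both strands, was present in 35 of 45 promoter windows of the 30 list genes that matched, which is 77.8%. The share was 43.8% of all 32851 windows and 80% of the 30 windows of the mitosis list. ACGTG alone was in 53.3% of the glycolysis and hypoxia windows, 36.7% of mitosis windows and 19.6% of all. Ndrg1, which also differed between the arms, and Tpi1 held neither sequence in these windows. No stretch was sought for Pfkp, Bnip3l and Ankrd37, the remaining members that differed.

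The transporters that bring glucose in and carry lactate out had wide spreads. Slc2a1, the basal glucose transporter GLUT1, had 117, 104 and 159 CPM at day 10 and 164, 247 and 169 CPM at day 13, with a log2 fold change of 0.61 ± 0.32 (adjusted p = 0.82, edgeR). Slc2a3 (GLUT3) had 220.3, 429.6 and 388 CPM at day 10 and 340.3, 983 and 569 CPM at day 13, and here the groups overlapped, unlike those of Slc2a1. Slc16a3, the lactate exporter MCT4, had a log2 fold change of 0.59 ± 0.25.

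Among the enzymes, hexokinase Hk2, which traps glucose in the cell, had 73.2, 38.2 and 87.4 CPM at day 10 and 112, 113 and 86.3 CPM at day 13, higher in 2 of 3 pairs. Pfkl, the liver form of phosphofructokinase, the committed step, had 474, 502 and 501 CPM at day 10 and 628, 785 and 625 CPM at day 13. No day 13 library overlapped day 10, and the 18 other libraries, at 507 to 869 CPM, were also all above day 10. Its log2 fold change was 0.46 ± 0.13 (adjusted p = 0.39, edgeR), and that of the platelet form Pfkp was 0.50 ± 0.15.

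Tpi1, the triose phosphate isomerase, had 981, 1159.9 and 1080.2 CPM at day 10 and 1264, 1728 and 1398 CPM at day 13, and Pgk1, the first step that yields ATP, had 1144, 1566 and 1402 CPM at day 10 and 1558, 2308 and 1821 CPM at day 13. Groups were apart for Tpi1 and overlapped for Pgk1. Gapdh, often used as a reference gene, had 4791, 4884 and 5033 CPM at day 10 and 5239.7, 5981 and 5407 CPM at day 13, a log2 fold change of 0.18 ± 0.10. Ldha, which makes lactate, had 2523, 2987 and 2726 CPM at day 10 and 2973, 3797 and 3155 CPM at day 13, with overlap and a log2 fold change of 0.27 ± 0.11. Pfkfb3, which activates phosphofructokinase, and the carbonic anhydrase Car9, a HIF marker, had log2 fold changes of -0.01 ± 0.11 and 0.01 ± 0.24.

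Pdk1, the kinase that keeps pyruvate out of the mitochondrion, had the lowest p of the list. Its levels were 102, 99.1 and 104 CPM at day 10 and 159, 186 and 136 CPM at day 13, with day 10 within a narrow band below all 21 other libraries, of which the 18 outside this comparison had 105 to 253 CPM. The log2 fold change was 0.66 ± 0.16, with an adjusted p of 0.29 by edgeR and 0.0268 by DESeq2. Bnip3 and Bnip3l, mitophagy receptors, had 114, 141 and 148 against 218, 342 and 201 CPM and 262, 318 and 269 against 356, 389 and 334 CPM. Neither pair of groups overlapped.

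Of the oxygen sensors, which are themselves HIF targets, Egln1 had 69.2, 63.3 and 79.2 CPM at day 10 and 92.04, 102 and 89.9 CPM at day 13 and Egln3 had 123, 56.7 and 136 CPM at day 10 and 201, 242 and 178 CPM at day 13. Both were higher in 3 of 3 pairs without overlap, with adjusted p of 0.54 and 0.67 (edgeR). Ndrg1, a hypoxia-induced gene, had 12.7, 17.98 and 18.2 CPM at day 10 and 23.1, 25.7 and 25.04 CPM at day 13, and the angiogenic factor Vegfa had a log2 fold change of 0.51 ± 0.43.

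In miR-125b cells the same list had a median of -0.42 between day 10 and day 13, and 9 of 33 were called lower and 0 higher, against 6.93% and 6.48% of all genes (13.4% together). The difference between the arms, control change less miR-125b change, was called higher for 8 of 33 and lower for 0, against 1.86% and 1.99% of all genes. These were Pdk1, Ndrg1, Egln1, Pfkp, Pfkl, Bnip3, Bnip3l and Ankrd37. For Pdk1 the difference was 1.25 ± 0.23 (adjusted p = 0.0161, edgeR), made of 0.66 ± 0.16 in control and -0.59 ± 0.16 in miR-125b. For Ndrg1 it was 1.86 ± 0.35 (adjusted p = 0.0172, edgeR). The difference was called for 517 genes in all (3.85%), 3 without the replicate block, 1 without day 10 control replicate 3, day 13 control replicate 2 or day 10 miR-125b replicate 3, and 0 without day 13 miR-125b replicate 1. Fits without the other libraries in turn called 3 (day 10 control replicate 1), 585 (day 10 control replicate 2), 604 (day 13 control replicate 1), 132 (day 13 control replicate 3), 42 and 1579 (day 10 miR-125b replicates 1 and 2), and 120 and 317 (day 13 miR-125b replicates 2 and 3).

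Comparisons that share the day 10 control libraries gave the list a median of 0.38 at day 13 after withdrawal on day 10, and of -0.18 for day 10 against day 2. Over all genes edgeR called 0% in the first and 0.149% in the second. Pdk1 had log2 fold changes of 0.59 ± 0.16 and -0.48 ± 0.16 there, with adjusted p of 0.28 and 0.25 (edgeR). The 3 comparisons are not independent, since each uses the same day 10 libraries.

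**Figure D3:**
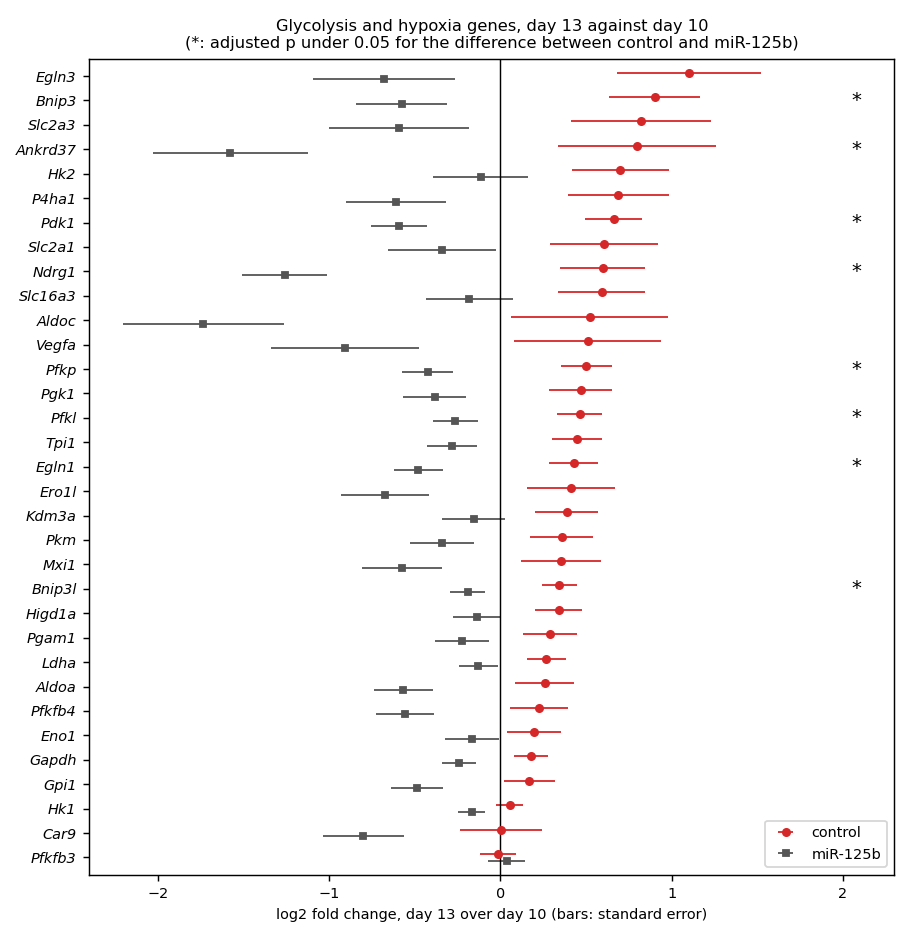
Log2 fold change of day 13 over day 10 (x axis) for the 33 glycolysis and hypoxia genes tested (y axis), in control cells (red circles) and miR-125b cells (grey squares), with standard errors. In control 32 of 33 lie above 0, and asterisks mark the 8 genes whose difference between arms had an adjusted p under 0.05.

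Cholesterol synthesis genes had a smaller lean in the same direction. This list, too, was chosen with earlier results of these data known. Of 35 members 29 had a log2 fold change above 0, against 51.9% of all genes. The median was 0.23, and the pairs gave 0.19, 0.30 and 0.17. By edgeR 0 were called, 10 were higher (28.6%, against 3.06% of all genes) and 0 lower at an unadjusted p under 0.05. In 3 of 35 the groups were apart with day 13 above, against 4.99% of all genes. DESeq2 called 1, Stard4 (against 0.0671% of all genes higher), and a fit of the 6 libraries alone called 13 higher (37.1%, against 1.06%). A fit of the 12 control libraries called 0 of 35. Without day 13 replicate 2 the median was 0.12 and 2 members were higher at an unadjusted p under 0.05.

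Hmgcs1, which makes the pathway's first committed precursor, had 332, 443 and 341 CPM at day 10 and 514, 780.3 and 419.7 CPM at day 13. It was higher in 3 of 3 pairs, but replicate 3 at day 13 lay below replicate 2 at day 10. The log2 fold change was 0.60 ± 0.19, with an adjusted p of 0.49 (edgeR). Hsd17b7, a later enzyme, had a log2 fold change of 0.45 ± 0.12, and Sqle, the squalene epoxidase, one of 0.21 ± 0.10.

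Stard4, a carrier that moves cholesterol between membranes, had 202, 242 and 200.5 CPM at day 10 and 262, 366 and 235 CPM at day 13 (adjusted p = 0.15 by edgeR and 0.0215 by DESeq2). The regulator Srebf2, which encodes SREBP-2, had a log2 fold change of 0.05 ± 0.10. The difference between the arms was called higher for 2 of 35 (5.71%, against 1.86% of all genes higher). Fdft1, squalene synthase, was 1 of them at 0.74 ± 0.18 (adjusted p = 0.0315, edgeR).

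The sterol response sequence TCACCCCAC, sought on both strands, was in 1 of 29 cholesterol list windows, that of Hmgcs1, and in 0.551% of all windows. The sequence is shown with the motif in capitals, at chr13:119690203-119690229 on the plus strand (GRCm38.p6, RefSeq).
Hmgcs1: acgtcaccgtcTCACCCCACttcccag

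**Figure D4:**
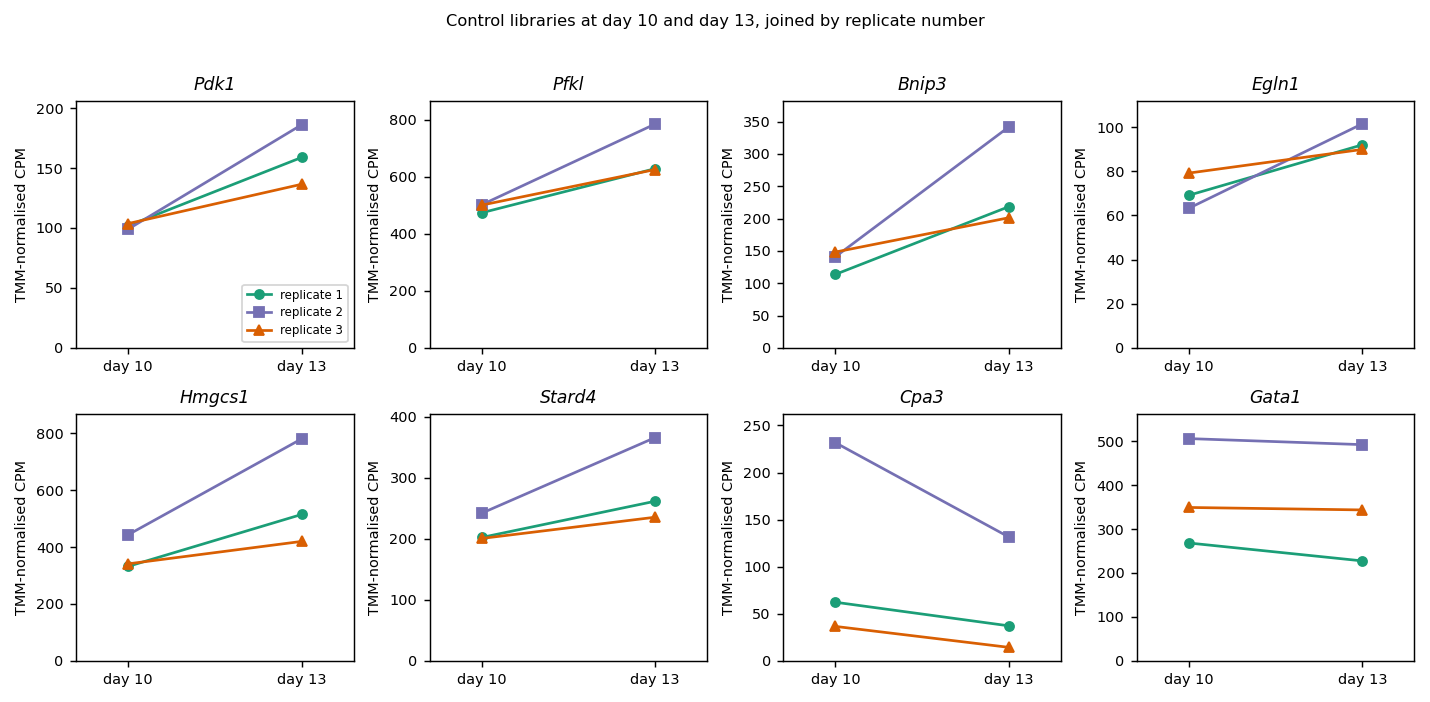
TMM-normalised CPM (y axis, from 0) of 8 genes in the control libraries at day 10 and day 13 (x axis), with lines joining libraries of the same replicate number. Pdk1, Pfkl, Bnip3, Egln1, Hmgcs1 and Stard4 slope upward in 3 of 3 pairs and Cpa3 downward, and the Gata1 lines are ordered by replicate at both days.

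Gata1 and the miR-125b target Arid3a did not pass the test. Gata1 had 268, 506 and 349 CPM at day 10 and 227, 492 and 344 CPM at day 13, a log2 fold change of -0.09 ± 0.15 (adjusted p = 0.98, edgeR). The spread between replicate numbers was larger than that between days. Counts per gene do not separate the long from the short form, so they do not check the edit. Arid3a, a regulator of megakaryocyte and B-cell genes, had 50.8, 53.6 and 71.04 CPM at day 10 and 49.5, 61.5 and 71.9 CPM at day 13, a log2 fold change of 0.06 ± 0.16 (adjusted p = 0.99, edgeR). In miR-125b cells it rose by 0.71 ± 0.16 (adjusted p = 0.00974, edgeR), and the difference of -0.65 ± 0.23 had an adjusted p of 0.10.

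The libraries carried megakaryocyte genes at similar levels on both days. The 22 surface and adhesion genes summed to 3382 to 4788 CPM at day 10 and 3192 to 4919 at day 13. Of 21 tested 0 were called, 0 had an unadjusted p under 0.05 and the median log2 fold change was 0.00. Itga2b (CD41) had 1224, 1794 and 1594 CPM at day 10 and 1119, 1786 and 1740.1 CPM at day 13. Among 26 platelet granule and proplatelet genes 0 were called and the median was 0.09. At an unadjusted p under 0.05, 3 were higher (11.5%, against 3.06% of all genes) and 0 lower.

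Pf4, a chemokine stored in platelet granules, had 1483, 2735 and 1226 CPM at day 10 and 1612, 3488 and 1518 CPM at day 13, and Plek, a platelet signalling protein, had 558, 616 and 699 CPM at day 10 and 737, 765 and 742 CPM at day 13. Erythroid genes had a median of 0.12 with 0 of 31 called. At an unadjusted p under 0.05, 3 of them were higher (9.68%, against 3.06% of all genes) and 0 lower. Cpox, a haem synthesis enzyme, and the Kell antigen Kel had log2 fold changes of 0.46 ± 0.14 and 0.49 ± 0.15. The adult globin Hbb-bt had 11.2, 5.47 and 22.1 CPM at day 10 and 4.44, 5.69 and 24.9 CPM at day 13, and Alas2 was below 1 CPM in all 6 libraries.

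Mast cell and basophil genes leaned the other way. Of 26 tested 3 were above 0 and the median was -0.21, with -0.26, -0.20 and -0.23 in the pairs. By edgeR and DESeq2 0 were called, and 0 of the 26 had an unadjusted p under 0.05. A fit of the 6 libraries alone tested 21 and called 2 lower, Cpa3 and Ms4a2 (9.52%, against 1.26% of all genes lower). Cpa3, a granule protease of mast cells, had 62.2, 232 and 36.5 CPM at day 10 and 37.1, 132 and 14.3 CPM at day 13, and Fcer1a, the IgE receptor, had 15.3, 57.6 and 3.96 CPM at day 10 and 13.2, 26.8 and 1.84 CPM at day 13. Each was lower in 3 of 3 pairs, but replicates differed more than days did, and the summed level was 2097 to 3933 CPM at day 10 and 2243 to 3443 at day 13. In bulk RNA fewer cells of a type and less RNA per cell cannot be told apart. Gata2 and Kit, which progenitors share with mast cells, had log2 fold changes of -0.21 ± 0.14 and -0.22 ± 0.17.

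Several defining genes of other liver and blood cells were at or near 0 counts, but not all listed genes were. Alb and Cd3e had 0 counts in all 6 libraries, and Apoa1, Cdh5, Col3a1, Pdgfra, Pax5 and C1qa had at most 4 in any library. In all, 12 of 18 hepatocyte genes, 4 of 12 endothelial, 5 of 12 stromal, 6 of 17 lymphoid, 8 of 30 monocyte and macrophage and 7 of 26 neutrophil genes had 0 counts in all 6. Of listed genes that were present, the pericyte receptor Pdgfrb had 40.4, 2.68 and 34.2 CPM at day 10 and 48.4, 2.26 and 36.1 CPM at day 13, and the lysozyme gene Lyz2 of myeloid cells had 3.21, 19.8 and 5.59 CPM at day 10 and 3.01, 16.1 and 5.14 CPM at day 13. Both differed between replicate numbers more than between days. Summed levels at day 10 and day 13 were 2.83 to 4.80 and 2.40 to 4.22 CPM for hepatocyte genes, and 8.10 to 29.1 and 8.22 to 27.2 CPM for endothelial genes. They were 5.67 to 49.9 and 4.51 to 59.2 CPM for stromal genes, and 7.74 to 50.3 and 6.40 to 54.7 CPM for lymphoid genes. Monocyte and macrophage genes, some of which other blood cells share, had 35.5 to 110.5 and 33.3 to 71.0 CPM, and neutrophil genes 8.96 to 33.8 and 7.49 to 45.1 CPM. In these 6 lists 0 members were called by edgeR or DESeq2, 1 neutrophil gene was lower at an unadjusted p under 0.05, and their medians over the few tested members were -0.28, -0.16, 0.17, 0.03, -0.22 and -0.20 in the order given.

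Proliferation genes had medians near that of all genes, with mitosis genes leaning higher and DNA replication genes lower. Of 34 mitosis genes 25 were above 0, against 51.9% of all genes, with a median of 0.08. At an unadjusted p under 0.05, 4 were higher (11.8%, against 3.06% of all genes), and 0 were called. Bub1, a spindle checkpoint kinase, had 79.5, 59.4 and 74.8 CPM at day 10 and 99.1, 80.2 and 82.2 CPM at day 13, and Cenpf, a kinetochore protein, had 77.5, 70.1 and 76.1 CPM at day 10 and 94.9, 91.95 and 91.2 CPM at day 13, both without overlap. Mki67, the proliferation marker, had a log2 fold change of 0.11 ± 0.10. Of 39 DNA replication genes 10 were above 0 and 0 called, with a median of -0.07. At an unadjusted p under 0.05, 1 was higher (2.56%) and 2 were lower (5.13%, against 3.33% of all genes). Mcm5, of the replicative helicase, had a log2 fold change of -0.10 ± 0.10. In miR-125b cells 15 of the 39 were called higher, against 6.48% of all genes, and the difference between arms was called lower for 4, against 1.99%, Ccne1 among them at -0.95 ± 0.25 (adjusted p = 0.0434, edgeR). Histone genes had a median of -0.24 over 22 members with 0 called and 1 lower at an unadjusted p under 0.05, with pairs of -0.46, -0.35 and 0.19.

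Targets of p53 had a median of 0.10 over 33 members with 0 called and 2 lower at an unadjusted p under 0.05, while in miR-125b cells 18 were called lower, against 6.93% of all genes, with a median of -0.58. The difference was called higher for 8 of 33 (24.2% against 3.85% in either direction over all genes). Cdkn1a, the cell cycle inhibitor p21, had 126, 136 and 154 CPM at day 10 and 127, 166 and 179.6 CPM at day 13 in control, against 231, 171 and 421 and 111, 106 and 163 CPM in miR-125b cells. The control groups overlapped, and the difference was 1.27 ± 0.25 (adjusted p = 0.0182, edgeR). Bax, an effector of apoptosis, had a log2 fold change of -0.29 ± 0.13.

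DESeq2 called members of 3 of the 27 lists, namely the glycolysis, cholesterol and ribosomal lists. In the fit of the 6 libraries alone, which called 1.06% of all genes higher and 1.26% lower, other lists also had members called. These were 2 higher and 1 lower of 12 mitochondrial genome genes (25%), 3 and 1 of 38 ribosomal genes (10.5%), 2 and 1 of 33 ATF4 genes (9.09%) and 1 and 1 of 22 unfolded protein response genes (9.09%). There were 2 higher of 25 platelet granule genes (8%), 2 of 34 mitosis genes (5.88%) and 1 of 29 erythroid genes (3.45%). The TGF-beta, apoptosis and p53 lists had 1 lower each (4.17%, 4.76% and 3.12%). With all 24 libraries the remaining lists had 0 members called by edgeR or DESeq2, at most 2 higher and 3 lower at an unadjusted p under 0.05, and, the mitochondrial genome apart, medians from -0.07 to 0.11. These were -0.03 for interferon response, -0.04 for the ATF4 and amino acid response, -0.07 for the unfolded protein response and -0.05 for lysosome and autophagy. They were -0.02 for the TGF-beta pathway, 0.02 for apoptosis regulators, 0.03 for growth factor and cytokine feedback, 0.06 for stem and progenitor genes and 0.11 for the fetal growth programme. Genes of the mitochondrial genome had a median of 0.21 over 12 members, and their share of all counts was 1.41% to 1.61% at day 10 and 1.61% to 1.83% at day 13. Lin28b, a fetal RNA-binding protein, had 56.7, 46.8 and 52.2 CPM at day 10 and 58.99, 50.2 and 56.3 CPM at day 13 in control. In miR-125b cells it rose by 0.70 ± 0.10, and the difference was -0.62 ± 0.14 (adjusted p = 0.0277, edgeR).

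**Figure D5:**
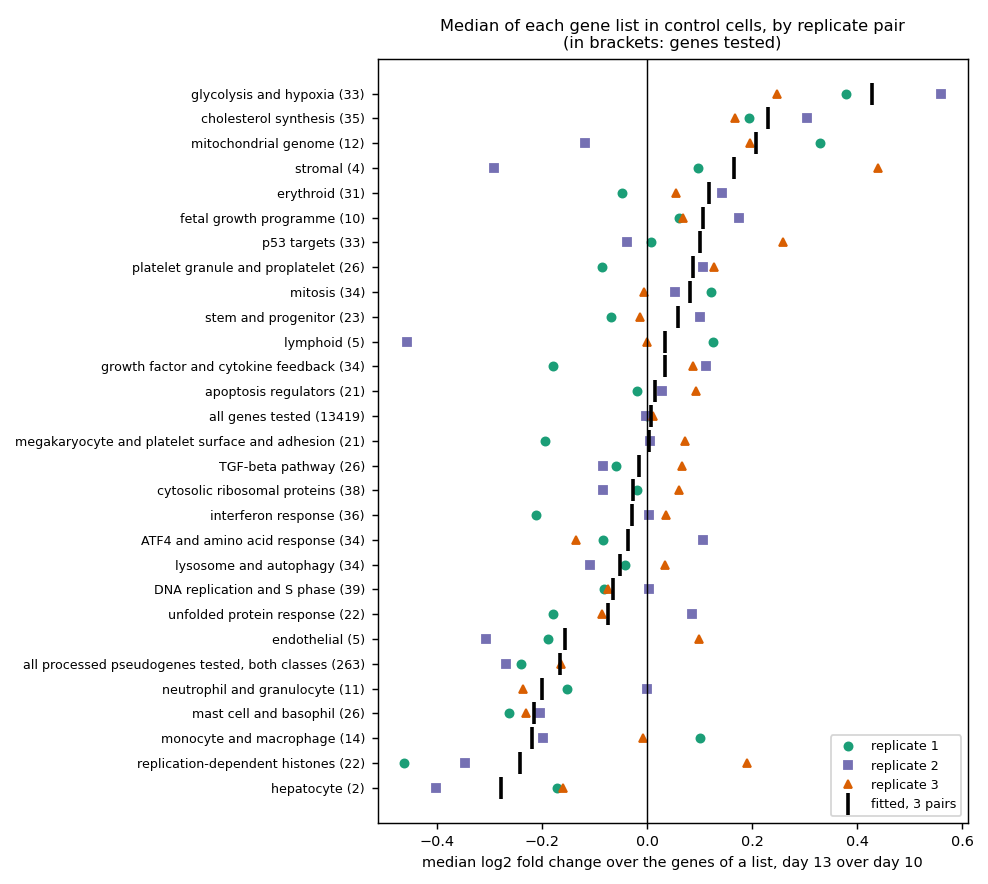
Median log2 fold change of day 13 over day 10 (x axis) for each gene list, for all processed pseudogenes and for all genes tested (y axis, number tested in brackets), in each replicate pair (symbols) and in the fit over the 3 pairs (black bars). Glycolysis and hypoxia has the highest fitted median, 0.43, against 0.01 for all genes, and its 3 pairs lie between 0.25 and 0.56. The lists were chosen with earlier results of these data known.

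Beyond these lists, the rule named genes whose interval change differed most clearly between the arms. Trmt61a, a tRNA methyltransferase subunit, had 41.2, 30.05 and 42.9 CPM at day 10 and 28.8, 20.97 and 30.6 CPM at day 13 and differed by -1.35 ± 0.23. Pop5, of the RNase P and MRP complexes, had 61.6, 62.4 and 69.3 CPM at day 10 and 54.4, 56.4 and 54.8 CPM at day 13, with groups apart, and differed by -0.82 ± 0.14. Sf3b4, a splicing factor, and Mrpl3, of the mitochondrial ribosome, differed by -0.80 ± 0.14 and -0.55 ± 0.10. On the other side Ak1, an adenylate kinase, differed by 1.75 ± 0.32, with a control change of 0.14 ± 0.23 and a miR-125b change of -1.60 ± 0.22. Dennd2d, Haghl, Clstn3 and Ksr1 differed by 1.10 ± 0.20, 1.09 ± 0.20, 0.79 ± 0.14 and 0.74 ± 0.14. The adjusted p of each of these 9 genes was 0.0161 in edgeR, none of them passed the control test, and the count of such calls depends on single libraries as given for the glycolysis list.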

How the data were processed

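The authors deposited 1 table of whole-number read counts per gene for 24 mouse RNA-seq libraries, used here as deposited. Per the submitters' processing notes, fastp, HISAT2 2.0.5, featureCounts and the mm10 build were used, with no role or order given, and the annotation, strand setting and treatment of reads that match several places are not given in the sources used here. Reads of near-identical copies and overlapping genes may therefore be divided differently from their origin. Of 47069 gene identifiers 46488 matched GENCODE M21 (GRCm38) and at most 0.0638% of a library's counts lay on the rest, which were left out. No count column was left unmatched to a library.

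Genes were kept by edgeR's filterByExpr over 8 groups of 3 libraries, scaled by TMM, and tested with edgeR 4.0.16 (R 4.3.3) by the quasi-likelihood test (robust) over all 24 libraries, with group and replicate number as terms. P-values were adjusted by Benjamini-Hochberg over 13419 genes. Replicate numbers 1 to 3 recur across groups in the labels. Deviations from the group means correlated at 0.163 to 0.781 in all 84 pairs of same-numbered libraries, and at 0.631 to 0.781 in the 3 pairs compared. The number was therefore kept as a block with 14 residual degrees of freedom. Different numbers had a median of -0.304. That value is no separate check, since deviations sum to 0 within a group and a positive value for same numbers forces a negative one here. No pair of replicates agreed within sampling noise (chi-square per degree of freedom 16.8 to 49.8 in the 6 libraries). Fits were tested on simulated data (34.3%, 68.7% and 90.9% of changed genes recovered at 0.5, 1 and 2 log2 in this comparison, 13419 genes). In that simulation 5 unchanged genes were also called. Alternatives were DESeq2 1.42.0, RLE scaling, no filter, no block, fewer libraries, the newer quasi-likelihood estimate, protein-coding genes only, and leaving out libraries.

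Named genes were Gata1 and Arid3a, genes passing the test with a mean of at least 3 log2 CPM and one direction in 3 of 3 pairs, filled up to 10 on each side by lowest p, fixed anchors and lowest-p members of each of 27 lists, and up to 5 genes on each side for the difference between arms. Rpl15-ps3, Xist, Ddx3y, the source genes of the copies and further members of the glycolysis and cholesterol lists were named after their values were seen. The members and lists were chosen with earlier results of these data known. Matches of pseudogenes to transcripts were made with BLAST+ 2.17.0. RefSeq promoter windows held 300 bases. Some items are not reported here.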

Additional observations from a re-analysis of the deposited data

Results flagged for a closer look

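The 25 results here are genes whose change from day 10 to day 13 differed between control and miR-125b cells. The test was of the difference itself (control change less miR-125b change, log2, edgeR adjusted p under 0.05). The 25 are not the full set, since 517 of 13419 genes (3.85%) passed this test. Only genes named by the rule or called within control cells were taken, and some were named for low p in this same test. Ndrg1, Egln1, Pfkp, Bnip3, Bnip3l, Ankrd37 and Fdft1, given above, also passed and are not among the 25. Groups of 3 libraries are too small to look for single libraries far from the rest. Higher in control relative to miR-125b were Ak1 at 1.75, Cdkn1a at 1.27, Pdk1 at 1.25, Dennd2d at 1.10, Haghl at 1.09 and Vldlr, a lipoprotein receptor, at 1.04. The same held for Clstn3 at 0.79, Ost4 at 0.78, Rps29 at 0.77, Rps28 at 0.75, Ksr1 at 0.74 and Pfkl at 0.73. Lower in control relative to miR-125b were Dnajb11, a chaperone of the endoplasmic reticulum, at -0.54, Mrpl3 at -0.55, Lin28b at -0.62, Sf3b4 at -0.80, Pop5 at -0.82, the cyclin Ccne1 at -0.95 and Trmt61a at -1.35. Of processed pseudogenes, Rpl10a-ps1 had -0.75, Gm10275 -0.87, Gm12918 -1.25, Rpl15-ps3 -3.01 and Gm14303 -3.70. S100a9, a calprotectin subunit of neutrophils, had -8.74, but its levels in control were 0.0486, 0 and 0.325 CPM at day 10 and 0 in the 3 libraries of day 13, so this value depends on the prior count and is no bound. Of these 25, Rps29, Gm14303, Gm10275 and Rpl15-ps3 also passed the test within control cells.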

How the results depend on the processing

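The day 13 against day 10 comparison in control called 5 genes, 3 without the replicate block, 8 with RLE scaling, 13 without the filter, 1 with coding genes alone, 34 by DESeq2 (9 higher, 25 lower) and 289 in a fit of the 6 libraries alone (132 higher, 157 lower). All 5 genes were among those called by DESeq2, with RLE scaling and in the 6 libraries alone. Leaving out 1 library or 1 replicate number gave 0 to 3. The miR-125b interval called 1800 genes, 474 without the replicate block and 3 to 2618 with a library or number left out. The difference between the arms called 517, 3 without the replicate block, 967 by DESeq2 and 0 to 1579 with a library or number left out. Day 13 after withdrawal against day 10 called 0 by edgeR (1511 at an unadjusted p under 0.05) and 52 by DESeq2. Day 10 against day 2 called 20, 0 without the replicate block, 167 by DESeq2, 44 without the filter, 1 with coding genes alone, 7 in the 12 control libraries and 0 to 1 with a library left out. The cause of these shifts was not tested. Without the replicate block the adjusted p was 0.138 for Gm14303 and 0.173 for Rps6-ps4, and 0.0244 for Rps29. No called gene reversed its direction under the alternatives run. Fits with coding genes alone were chosen after seeing the data. So were, outside the control comparison, all fits that leave out a library, those of the 12 control libraries and of the newer quasi-likelihood estimate, and those without a replicate number in miR-125b. The lowest genes named, such as Rpl15-ps3, have few counts per library, where the spread between 3 libraries limits the test.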

Other observations

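DESeq2 brought further genes under an adjusted p of 0.05, and 5 of them are given as values chosen after they were seen. Gclm, the modifier subunit of the enzyme that starts glutathione synthesis, had 339.6, 340.2 and 432 CPM at day 10 and 248, 268 and 362 CPM at day 13 (adjusted p = 0.13 by edgeR and 0.00723 by DESeq2). It was lower in 3 of 3 pairs, and the groups overlapped. Iqcg, a calmodulin-binding protein of cilia, had 8.12, 2.74 and 3.904 CPM at day 10 and 13.2, 5.87 and 6.596 CPM at day 13 (adjusted p = 0.25 by edgeR and 0.0454 by DESeq2). Hspbp1, which releases nucleotide from the chaperone HSP70, had 103, 86.9 and 98.1 CPM at day 10 and 76.3, 59.6 and 74.8 CPM at day 13 (adjusted p = 0.24 by edgeR and 0.0429 by DESeq2). Rps27rt, a retrogene copy of Rps27 annotated as protein-coding, had 4.76, 7.94 and 5.097 CPM at day 10 and 1.34, 1.53 and 1.45 CPM at day 13, with groups apart. Sap18b had 4.47, 5.47 and 6.56 CPM at day 10 and 1.81, 2.26 and 2.07 CPM at day 13.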
